A study of Mus musculus and Rattus norvegicus with 18 samples.

Results

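The 8 genes described here encode myosin heavy chains: Myh6, Myh7, Myh7b, Myh3, Myh8, Myh9, Myh10 and Myh14. They were taken by symbol, and all 8 were found in the heart RNA table (55487 gene IDs), in the heart ribosome footprint table (17866 genes) and in the table of the rat cell line H9C2 (32883 gene IDs). The study asked what loss of Mettl1, the enzyme subunit that methylates a set of tRNAs at a guanosine, does to heart muscle. Whole hearts came from C57BL/6 mice that were 4 weeks old, either Mettl1 conditional knockout (genotype label M1cKO, cKO below) or Ctrl, with 2 RNA-seq and 2 ribosome profiling libraries of each genotype. H9C2 cells, a line derived from embryonic rat heart, were either Mettl1-null (M1-null, 1 line carrying a CRISPR-Cas9 frameshift) or WT, with 3 RNA-seq libraries of each. The labels give neither the Cre driver nor the deleted exon, nor the genotype of Ctrl beyond its name, nor whether replicates are separate animals or cultures, so p-values measure the spread between these libraries, which may be technical. In bulk hearts, fewer cells of a type and less RNA per cell cannot be told apart.

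Myosin heavy chains carry the motor head that pulls on actin and the rod that packs into filaments. Myh6 (alpha) is the fast chain of the adult mouse ventricle and of the atria, and Myh7 (beta) is the slow chain that predominates in the fetal mouse ventricle and returns under load or in thyroid hormone deficiency. Myh7b is a slow-type chain best known as the host of a microRNA. Myh3 (embryonic) and Myh8 (perinatal) are chains of developing skeletal muscle. Myh9, Myh10 and Myh14 are the nonmuscle myosins IIA, IIB and IIC, which serve adhesion, cytokinesis and cell shape, and Myh9 is abundant in endothelial and blood cells.

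Myh6 (ENSMUSG00000040752) and Myh7 (ENSMUSG00000053093) lie next to each other on the minus strand of mouse chromosome 14, at chr14:54941921-54968017 and chr14:54970684-54994626 in GRCm38.p6, with 2666 bases between their spans. Myh7b lies at chr2:155611243-155634307. Myh3 and Myh8 lie on chromosome 11 at chr11:67078273-67102291 and chr11:67277124-67308634, and Myh10 lies farther along at chr11:68691915-68816626. Myh9 lies at chr15:77760585-77842175 and Myh14 at chr7:44605803-44670872. The reading frames used for the footprints hold 1822 (Myh8) to 2000 (Myh14) codons.

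Each of the 3 sarcomeric genes expressed in heart holds a microRNA within its span, and these sequences are shown because the heart RNA table counts reads at the same loci as the host genes. The mature forms, taken from RefSeq (GRCm38.p6), are written 5′ to 3′ with the seed, bases 2 to 8, in capitals. miR-208a-3p lies at chr14:54949072-54949093 (minus strand) inside Myh6, miR-208b-3p at chr14:54975710-54975731 (minus strand) inside Myh7, and miR-499-5p at chr2:155622893-155622913 (plus strand) inside Myh7b.
mmu-miR-208a-3p: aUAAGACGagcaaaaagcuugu
mmu-miR-208b-3p: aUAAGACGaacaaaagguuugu
mmu-miR-499-5p: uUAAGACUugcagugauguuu
The pair from Myh6 and Myh7 shares 1 seed, and the seed of miR-499-5p ends in another base.

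The 250 bases before the RefSeq start nearest each reading frame are shown for Myh6 (chr14:54966608-54966857, minus strand) and Myh7 (chr14:54994550-54994799, minus strand), because the RNA of these neighbours moved in opposite directions. Capitals mark matches on either strand to CATNCC, the MCAT element bound by TEAD factors, or to TATANA, here called a TATA-like run.
Myh6 upstream window: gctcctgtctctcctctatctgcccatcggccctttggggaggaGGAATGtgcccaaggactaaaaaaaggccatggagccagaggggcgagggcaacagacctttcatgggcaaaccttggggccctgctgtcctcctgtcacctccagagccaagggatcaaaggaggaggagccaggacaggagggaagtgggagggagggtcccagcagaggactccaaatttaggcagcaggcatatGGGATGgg
Myh7 upstream window: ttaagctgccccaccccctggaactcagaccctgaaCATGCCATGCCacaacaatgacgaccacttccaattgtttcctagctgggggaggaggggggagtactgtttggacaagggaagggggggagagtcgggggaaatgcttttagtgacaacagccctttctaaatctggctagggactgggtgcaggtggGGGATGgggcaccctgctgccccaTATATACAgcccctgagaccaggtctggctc
The Myh7 window held overlapping CATGCC matches that begin 214 and 209 bases before the start, 1 reverse match that begins 55 bases before it, and overlapping TATA-like runs that begin 31 and 29 bases before it. The Myh6 window held reverse MCAT matches that begin 206 and 8 bases before the start and no TATA-like run. Bases past the RefSeq start used were not searched. The windows therefore do not show whether the promoters of the pair differ in such a run. Of 32851 mouse windows of 250 bases, 35.8% held a CATNCC match and 22.6% a TATANA match. Neither window held an exact match to AGATAA (the site of GATA factors, in 9.99% of windows) or AGGTCA (a thyroid hormone receptor half-site, in 14.0%). Looser forms of these sites were not searched, so the windows do not show that such sites are absent.

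Total counts were 15052652 to 16844783 reads per heart RNA library, 25171650 to 39675627 footprints per ribosome profiling library and 90321496 to 94202947 per H9C2 library. Levels are given as CPM, the usual counts-per-million unit, with TMM scaling factors. Mettl1 itself, which checks the labels, averaged 2.50 ± 0.02 CPM in cKO and 4.03 ± 0.39 CPM in Ctrl heart RNA (SD, n = 2 each; log2 fold change -0.69, adjusted p = 0.0664). Its footprints averaged 2.22 CPM in cKO and 6.45 ± 0.24 CPM in Ctrl hearts (-1.54, adjusted p = 1.0e-04), and its RNA 4.25 ± 0.49 CPM in M1-null and 16.2 ± 0.50 CPM in WT cells (-1.93, adjusted p = 1.1e-05, n = 3 each). Here and below, adjusted p-values are those of the edgeR quasi-likelihood fit after Benjamini-Hochberg correction across every gene tested, and a gene is called below 0.05.

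**Figure D1:**
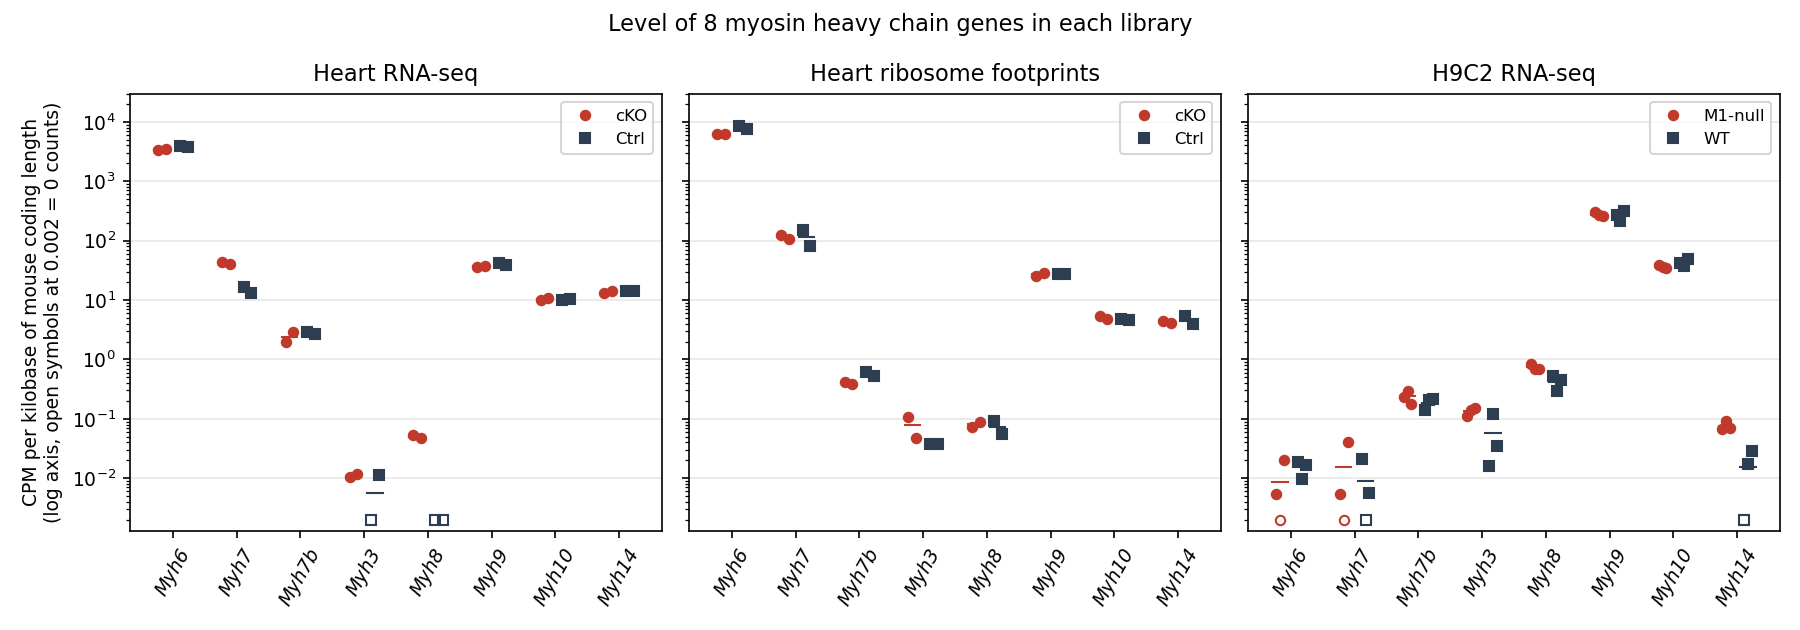
Level of each member in every library, in CPM per kilobase of mouse coding length on a log axis, for heart RNA, heart footprints and H9C2 RNA. Each symbol is 1 library, lines are means, and open symbols mark 0 counts. Myh6 stands above all other members in the heart and Myh9 in H9C2, and Myh7 RNA is the member whose cKO and Ctrl heart libraries lie farthest apart among those tested.

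Myh6 supplied nearly all heavy chain RNA of the heart. It made up 97.0% of the counts of the 8 genes in cKO hearts and 97.9% in Ctrl hearts, and the 8 genes together took 2.11 ± 0.05% of all RNA counts in cKO and 2.21 ± 0.02% in Ctrl hearts (SD, n = 2 each). In footprints Myh6 made up 97.6% in cKO and 98.1% in Ctrl hearts, and the 8 genes took 3.82 ± 0.02% of all footprints in cKO and 4.60 ± 0.37% in Ctrl hearts.

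Ordered by RNA level per kilobase of coding length, the cKO hearts ran Myh6 (3429.5 ± 82.9 CPM per kb), Myh7 (42.2 ± 2.84), Myh9 (36.9 ± 0.77), Myh14 (13.8 ± 0.68), Myh10 (10.5 ± 0.54) and Myh7b (2.41 ± 0.65), with Myh8 and Myh3 below 0.1 (SD, n = 2). The Ctrl hearts ran Myh6 (3832 ± 28.7 CPM per kb), Myh9 (40.6 ± 2.12), Myh7 (14.99 ± 2.51), Myh14 (14.2 ± 0.16), Myh10 (10.3 ± 0.25) and Myh7b (2.78 ± 0.17). Myh7 thus ranked next below Myh6 in cKO RNA and below Myh9 in Ctrl RNA, where its 2 libraries overlapped those of Myh14. In footprints Myh7 came next below Myh6 in both genotypes, at 116 ± 10.9 CPM per kb in cKO and 116 ± 49.2 CPM per kb in Ctrl hearts, and it did not overlap Myh9, at 26.9 ± 1.84 CPM per kb in cKO and 27.4 ± 0.09 CPM per kb in Ctrl hearts.

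In heart RNA 6 of the 8 members passed the filter on low counts, and 2 were called: Myh7 rose and Myh6 fell in cKO hearts. Over all 14088 genes tested, 14.4% were called (8.16% higher and 6.26% lower). Myh3 and Myh8 did not pass the filter.

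Myh7 RNA stood at 256 and 233 CPM in cKO hearts, against 97.3 and 76.7 CPM in Ctrl hearts. The groups did not overlap, and the lower cKO library was over the higher Ctrl library by more than either group's own spread. The log2 fold change was 1.49 ± 0.09 (SE; 2.81-fold, adjusted p = 3.5e-08). In every alternative run it stayed called, with a log2 fold change between 1.33 and 1.68.

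Myh6 RNA stood at 19598 and 20280.1 CPM in cKO hearts, against 22396 and 22159.8 CPM in Ctrl hearts. Both cKO libraries lay below both Ctrl libraries, by a margin that was small relative to the level. The log2 fold change was -0.16 ± 0.04 (SE; adjusted p = 0.00805). The call was lost when libraries were scaled by their totals (-0.08, adjusted p = 0.172) and with DESeq2 (-0.16, adjusted p = 0.12).

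Myh7 therefore took a larger share of the cardiac pair in cKO RNA. Myh7 made up 1.29% and 1.14% of Myh6 plus Myh7 reads in cKO hearts, against 0.433% and 0.345% in Ctrl hearts. The means were 1.21 ± 0.11% in cKO and 0.389 ± 0.062% in Ctrl hearts (SD, n = 2 each), a 3.12-fold ratio, and Wilson 95% intervals, which cover counting error only, were at most 0.0755 percentage points wide. The exact two-sided permutation test gave p = 0.333, the smallest that 2 against 2 allows.

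Ribosome footprints on Myh7 did not show this difference. Myh7 had 718 and 629 footprint CPM in cKO hearts, against 874 and 470 footprint CPM in Ctrl hearts. The cKO values lay between the Ctrl values, and the Ctrl libraries differed from each other more than any cKO library differed from their mean. The log2 fold change was 0.0038 ± 0.18 (SE; adjusted p = 0.993). The value rested on which Ctrl library was kept: it was 0.52 (adjusted p = 0.00362) without Ctrl replicate 1 and -0.38 (adjusted p = 0.0139) without Ctrl replicate 2.

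Myh6 footprints fell in cKO hearts. They stood at 36408 and 36443.5 CPM in cKO hearts, against 49159 and 43281 CPM in Ctrl hearts. The cKO libraries were close to each other and both lay below both Ctrl libraries. The log2 fold change was -0.34 ± 0.08 (SE; adjusted p = 0.00677), and Myh6 was the 1 called member of 7 tested, where 16.4% of all 13514 genes were called (9.11% higher and 7.33% lower). Myh6 footprints stayed called in every alternative run (-0.44 to -0.25).

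In footprints the Myh7 share of the pair was 1.93% and 1.70% in cKO hearts, against 1.75% and 1.07% in Ctrl hearts. The groups overlapped. The means were 1.81 ± 0.17% in cKO and 1.41 ± 0.48% in Ctrl hearts (exact permutation p = 0.667, smallest possible 0.333, n = 2 each), and the difference of 0.404 percentage points came to 0.0678 points without Ctrl replicate 2 and 0.741 points without Ctrl replicate 1.

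**Figure D2:**
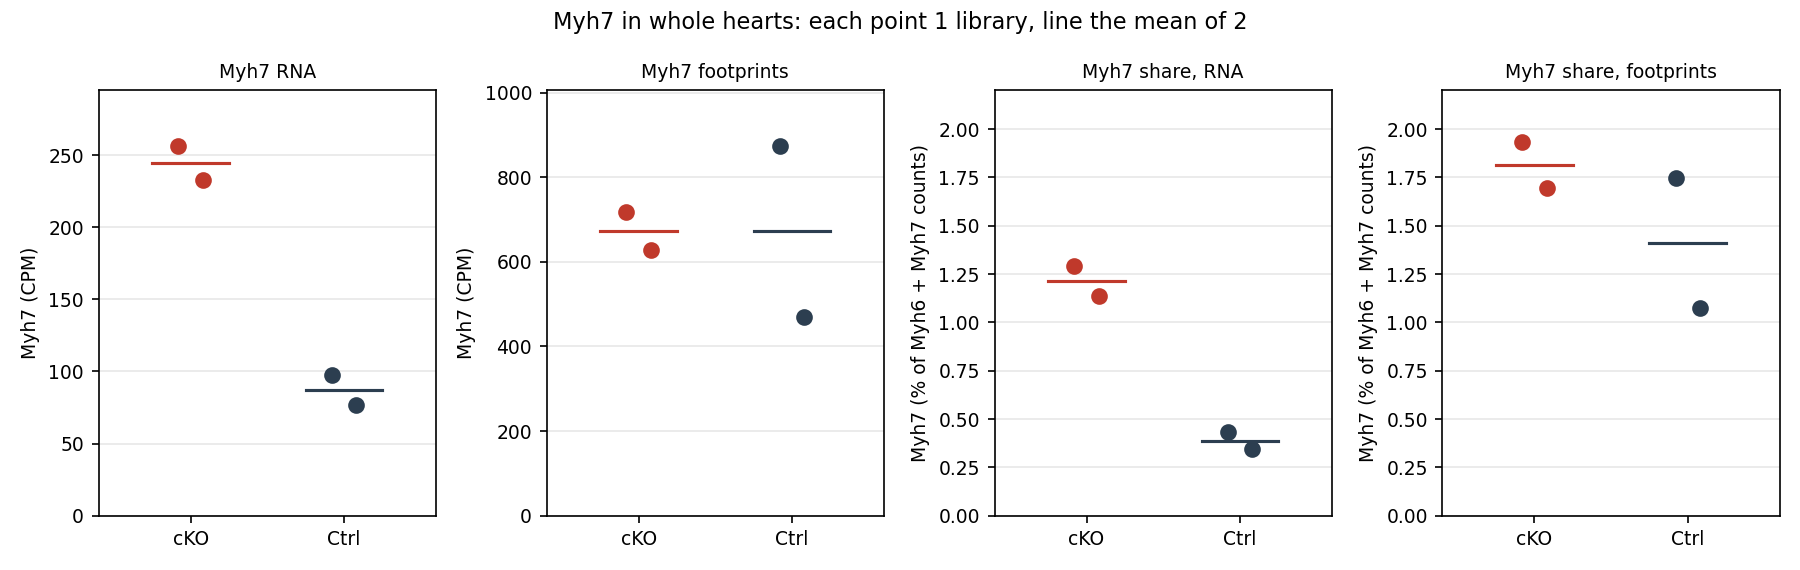
Myh7 level in CPM and Myh7 share of Myh6 plus Myh7 counts in percent, for heart RNA and heart footprints, cKO left of Ctrl. Each point is 1 library and lines are means of 2. In RNA both cKO libraries lie above both Ctrl libraries, and in footprints the cKO libraries (718 and 629 CPM) lie between the Ctrl libraries (874 and 470 CPM).

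The ratio of footprint CPM to RNA CPM, a relative measure of ribosome load, set Myh7 apart from the other members. In Ctrl hearts the Myh7 ratio was 7.72, at the 99.5th percentile of 12662 genes, and it ranged from 4.83 to 11.4 over the 4 pairings of an RNA with a footprint library. In cKO hearts it was 2.75, at the 94.5th percentile, with a range of 2.45 to 3.08, so the ranges of the genotypes did not overlap. The 4 pairings share libraries and are not independent values. The share of all genes whose ranges do not overlap was not computed. The median gene had a ratio of 0.809 in cKO and 0.800 in Ctrl hearts.

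In 1 model over the 8 heart libraries, the genotype effect on Myh7 was lower in footprints than in RNA by 1.5 on the log2 scale (interaction -1.5 ± 0.26 SE, adjusted p = 0.0307). Myh7 was the 1 called member of 6 tested, where 16 of all 12662 genes (0.126%) were called, 0.0711% higher and 0.0553% lower. The call was lost with DESeq2 (adjusted p = 0.144), without cKO replicate 1 (-1.51, adjusted p = 0.498) and without cKO replicate 2 (-1.46, adjusted p = 0.235). It stayed without Ctrl replicate 1 (-1.17, adjusted p = 0.00334) and without Ctrl replicate 2 (-1.72, adjusted p = 4.9e-05).

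The other 5 members tested in both assays did not pass the interaction test. Myh6 had a footprint to RNA ratio of 1.83 in cKO and 2.07 in Ctrl hearts, and its log2 difference was -0.20 ± 0.09 (adjusted p = 0.516, unadjusted p = 0.0498). The nonmuscle chains lay below the median gene. Myh9 had ratios of 0.730 in cKO and 0.673 in Ctrl hearts, Myh10 0.489 in cKO and 0.457 in Ctrl hearts, and Myh14 0.310 in cKO and 0.324 in Ctrl hearts. Myh7b had the lowest ratio of the 6, at 0.168 in cKO and 0.205 in Ctrl hearts (8.33rd and 10.6th percentiles).

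**Figure D3:**
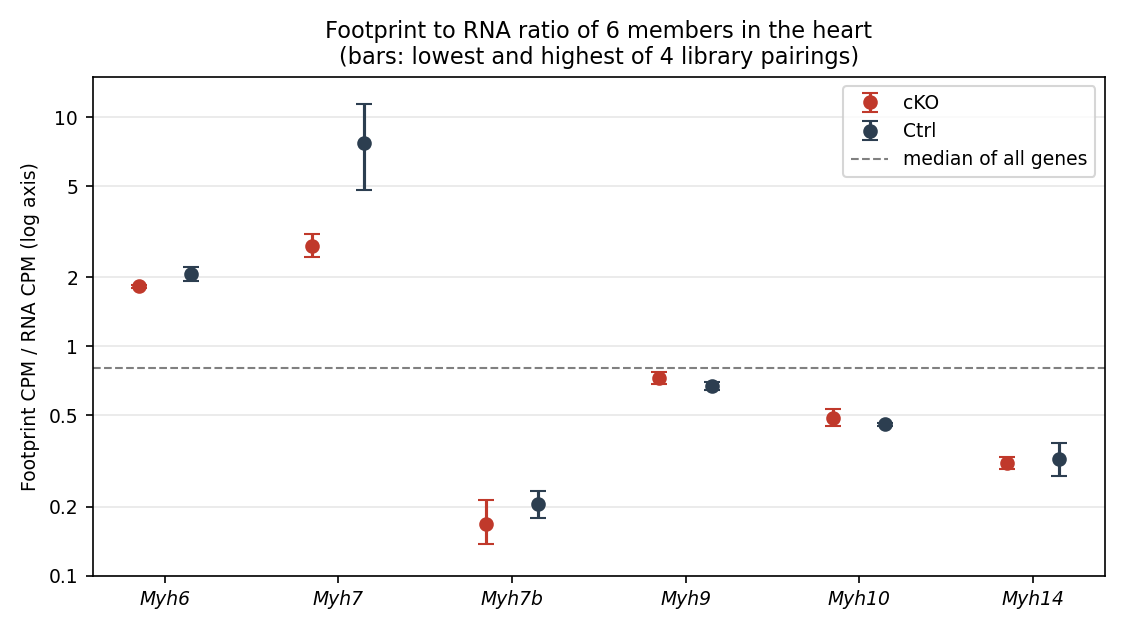
Footprint CPM over RNA CPM for the 6 members tested in both assays, on a log axis, cKO left of Ctrl. Points are ratios of group means, bars span the lowest and highest of 4 pairings of libraries, and the dashed line is the median of all genes. Myh7 has the highest ratio of the 6 in both genotypes and is the member whose cKO ratio (2.75) lies farthest from its Ctrl ratio (7.72).

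Myh6 and Myh7 are known as close copies of each other. The treatment of reads matching both is not stated in the labels, so the split between them is uncertain in each assay, and its part in these results was not tested. Other genes overlap the same spans. Besides the microRNAs, these are Cmtm5 and the long noncoding RNA Gm52092 over Myh6, and the long noncoding RNAs Gm31251 and Mhrt over Myh7. Of these, only Mhrt is described further. Mhrt, a long noncoding RNA known in mouse heart to run antisense from the Myh7 end of the locus, lies at chr14:54968787-54974349 over the end of Myh7, and its reading frames in the footprint table run on the plus strand. Mhrt had 139 and 145 RNA reads in cKO hearts, against 167 and 142 in Ctrl hearts. In the same libraries Myh7 had 4438 and 3611 reads in cKO hearts, against 1514 and 1207 in Ctrl hearts. Mhrt also had 398 and 453 footprints in cKO hearts, against 333 and 450 in Ctrl hearts, on a frame of 162 codons. Scaled for depth, its footprints averaged 11.5 ± 2.22 CPM in cKO and 13.8 ± 0.13 CPM in Ctrl hearts. Neither difference was called (log2 fold change -0.19, adjusted p = 0.472 in RNA, and -0.26, adjusted p = 0.259 in footprints). The labels do not state strand use in counting, so reads of Myh7 and of Mhrt cannot be told apart where they overlap. The Mhrt counts therefore do not limit how many Mhrt reads were counted as Myh7.

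The microRNA loci gave few reads in these libraries, which were not made to count mature microRNAs. Mir208b had 16 and 12 reads in cKO hearts, against 21 and 11 in Ctrl hearts, with overlapping groups (log2 fold change -0.26, adjusted p = 0.765). Mir208a had 1 read in each cKO library and 0 in each Ctrl library, and Mir499 had 0 in all 4.

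Myh7b RNA stood at 11.3 and 16.7 CPM in cKO hearts, against 16.8 and 15.4 CPM in Ctrl hearts. The groups overlapped (log2 fold change -0.21 ± 0.15, adjusted p = 0.407), and without cKO replicate 2 the value was -0.51 (adjusted p = 0.0435). Its footprints were 2.42 and 2.28 CPM in cKO hearts, against 3.62 and 3.005 CPM in Ctrl hearts, which did not overlap (-0.49 ± 0.25, adjusted p = 0.213). Over all genes tested the groups did not overlap for 55% in RNA and 55.9% in footprints.

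The developmental skeletal chains were near the detection limit in the heart. Myh8 had 5 and 4 RNA reads in cKO hearts and 0 in both Ctrl libraries. Set against 3 reads over the Ctrl group, its RNA was 3.03-fold higher in cKO. That value leaves out the counting error of the cKO reads, and Myh8 RNA was not tested. Myh8 footprints numbered 16 and 17 in cKO hearts, against 12 and 10 in Ctrl hearts (0.399 and 0.491 CPM in cKO, 0.499 and 0.304 CPM in Ctrl), and the CPM overlapped (log2 fold change 0.17 ± 0.57, adjusted p = 0.884). Myh3 had 1 RNA read in each cKO library and 0 and 1 in the Ctrl libraries. Its footprints numbered 24 and 9 in cKO hearts, against 5 and 7 in Ctrl hearts, a ratio of 2.2 with an exact 95% counting interval of 1.11 to 4.67, which did not overlap, and 1 cKO library held most of them. For Myh3 no difference in RNA was detectable at this depth.

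The nonmuscle chains did not pass the test in the heart. Only Myh9 had an unadjusted p under 0.05 in RNA (edgeR, 0.0326), and its adjusted p ran from 0.0569 to 0.605 over the alternatives run. Myh9 RNA stood at 214 and 220 CPM in cKO hearts, against 248 and 230 CPM in Ctrl hearts, without overlap (-0.14 ± 0.06, adjusted p = 0.138). Myh10 RNA stood at 60.1 and 64.6 CPM in cKO hearts, against 60.04 and 62.1 CPM in Ctrl hearts, and overlapped (0.03 ± 0.07, adjusted p = 0.848). Myh14 RNA stood at 79.9 and 85.7 CPM in cKO hearts, against 84.5 and 85.8 CPM in Ctrl hearts, and overlapped (-0.04 ± 0.07, adjusted p = 0.752).

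In footprints Myh9 averaged 158 ± 10.8 CPM in cKO and 161 ± 0.53 CPM in Ctrl hearts (-0.02 ± 0.08, adjusted p = 0.896). Myh10 averaged 30.5 ± 2.18 CPM in cKO and 27.9 ± 0.05 CPM in Ctrl hearts (0.13 ± 0.10, adjusted p = 0.449), and Myh14 averaged 25.6 ± 0.95 CPM in cKO and 27.6 ± 6.11 CPM in Ctrl hearts (-0.10 ± 0.13, adjusted p = 0.686). Within the nonmuscle class, Myh10 made up 16.98% and 17.4% of RNA reads in cKO hearts, against 15.3% and 16.4% in Ctrl hearts. These shares did not overlap, but the Wilson intervals of neighbouring libraries did (exact permutation p = 0.333, the smallest possible). In footprints the Myh10 share was 15.3% and 13.2% in cKO hearts, against 12.6% and 13.2% in Ctrl hearts (exact permutation p = 0.333), and the lower cKO and higher Ctrl share differed by far less than their Wilson intervals.

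Since the nonmuscle chains are made in many cell types, marker levels are given beside them. The summed RNA level of 6 endothelial markers was 1411 to 1423 CPM in cKO and 1539 to 1615 CPM in Ctrl hearts, that of 7 smooth muscle and pericyte markers 922 to 944 CPM in cKO and 1068 to 1080.0 CPM in Ctrl hearts, and that of 6 macrophage markers 288 to 302 CPM in cKO and 264 to 284 CPM in Ctrl hearts. Each marker of these lists had reads in at least 1 heart RNA library. The 5 erythroid markers summed to 1588 to 2487 CPM in cKO and 1452 to 1587 CPM in Ctrl hearts, and the 6 fibroblast markers to 1847 to 1971 CPM in cKO and 1751 to 1862 CPM in Ctrl hearts. The part of these markers in the myosin values was not tested. The 7 cardiomyocyte markers in the table summed to 19169.6 to 19771 CPM in cKO and 20357 to 20487 CPM in Ctrl hearts. Of 6 atrial markers tested in heart RNA, 2 rose and 1 fell, and the atrial light chains Myl7 and Myl4 had log2 fold changes of 0.01 and -0.04 (adjusted p = 0.987 and 0.895).

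**Figure D4:**
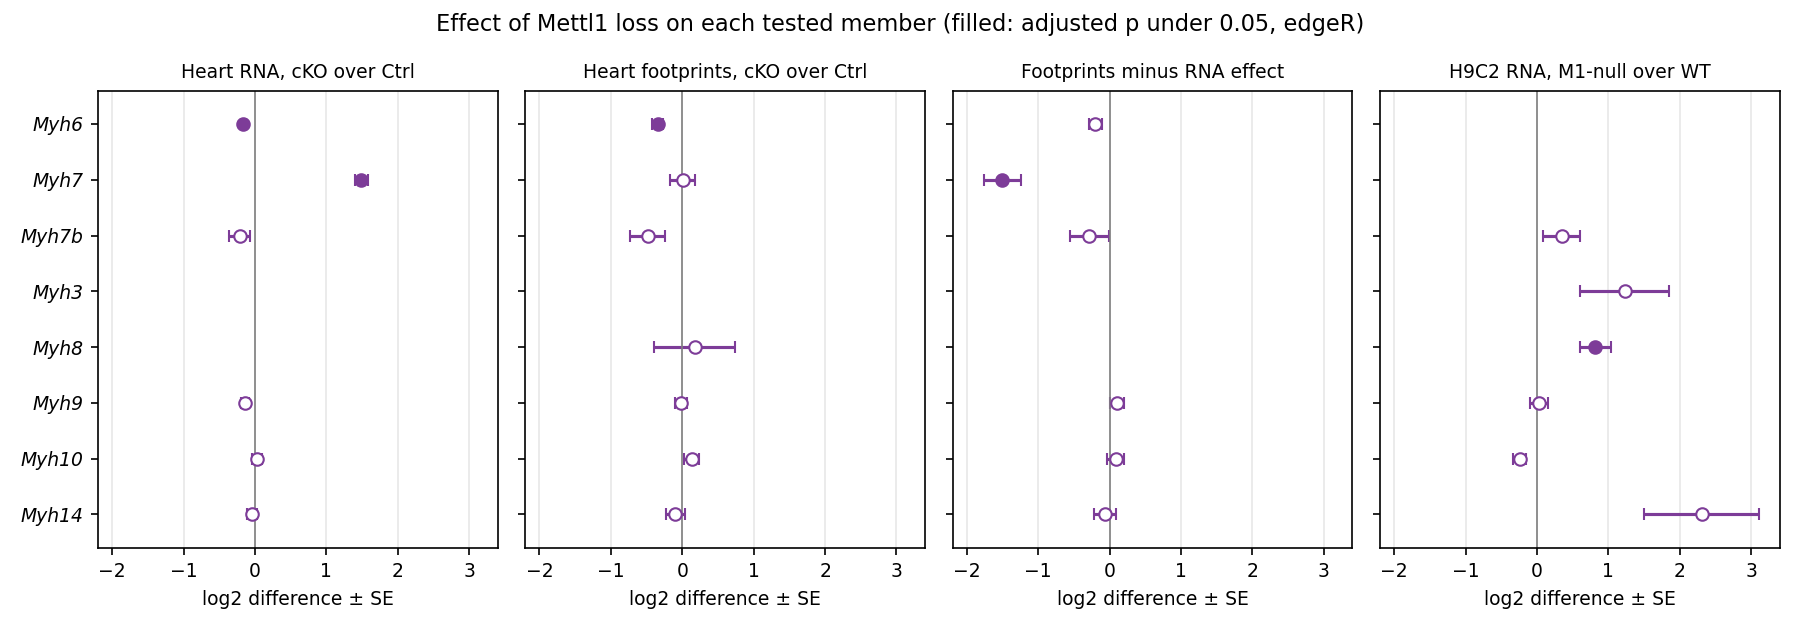
Log2 difference with its SE for each tested member in heart RNA and heart footprints (cKO over Ctrl), in the footprint effect minus the RNA effect, and in H9C2 RNA (M1-null over WT). Filled points have an edgeR adjusted p under 0.05. The called values are Myh7 at 1.49 and Myh6 at -0.16 in heart RNA, Myh6 at -0.34 in footprints, Myh7 at -1.5 for the difference between assays, and Myh8 at 0.82 in H9C2.

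H9C2 expressed a different set of heavy chains, with Myh9 making up 87.9% of the counts of the 8 genes in M1-null and 86.0% in WT cells. Per kilobase of mouse coding length, the M1-null order was Myh9 (275 ± 22.2 CPM per kb), Myh10 (36.2 ± 1.95), Myh8 (0.740 ± 0.084), Myh7b (0.238 ± 0.060), Myh3 (0.135 ± 0.021) and Myh14 (0.0770 ± 0.015), and the same 6 genes ran in the same order in WT cells (SD, n = 3). In WT cells Myh14 overlapped Myh3.

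The cardiac pair was nearly absent, although the labels call the cells cardiomyocytes. Myh6 and Myh7 together had counts of 0 to 33 in M1-null and 5 to 21 in WT libraries. The H9C2 counts are whole numbers, but whether they are reads or were estimated from coverage is not stated, so no counting interval is given for them. The cardiac calcium channel gene Ryr2 was at 0 in all 6 libraries and Tnnt2 (cardiac troponin T) averaged 7.80 ± 0.57 CPM in M1-null and 23.2 ± 1.58 CPM in WT cells. Of 6 cardiomyocyte markers tested, 1 rose and 1, Tnnt2, fell. Of the skeletal muscle factors, Myod1, which sets the lineage, averaged 187 ± 8.54 CPM in M1-null and 114 ± 10.5 CPM in WT cells (0.71). Myog (myogenin), which drives differentiation, went the other way, at 7.58 ± 0.41 CPM in M1-null and 16.2 ± 0.22 CPM in WT cells (-1.10, adjusted p = 5.3e-05). The Myh7 share of so few counts ran from 50% to 66.7% in the 2 M1-null libraries that had any, and from 0% to 52.4% in WT libraries, so no difference was detectable at these counts (exact permutation p = 0.3).

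Of 6 members tested in H9C2, Myh8 was called, where 25.1% of 14801 genes were called (13.6% higher and 11.5% lower). Myh8 stood at 4.57, 3.84 and 3.72 CPM in M1-null cells, against 2.83, 1.58 and 2.46 CPM in WT cells. The groups did not overlap, as for 42.6% of all genes tested. The log2 fold change was 0.82 ± 0.21 (SE; 1.76-fold, adjusted p = 0.0237). The call was lost without any single M1-null library (0.72 to 0.87, adjusted p = 0.0571 to 0.0947).

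Myh3, the embryonic chain, stood at 0.617, 0.774 and 0.851 CPM in M1-null cells, against 0.0889, 0.671 and 0.196 CPM in WT cells. WT replicate 2 overlapped the M1-null libraries. The log2 fold change was 1.23 ± 0.62 (adjusted p = 0.189), and without WT replicate 2 it was 2.38. Myh3 had 8 counts in WT replicate 1. It passed the filter on low counts with the help of its M1-null libraries, so these values are given as a description. Myh14 stood at 0.398, 0.562 and 0.426 CPM in M1-null cells, against 0, 0.102 and 0.174 CPM in WT cells. These did not overlap (2.30 ± 0.81, adjusted p = 0.0693, and 0.0329 to 0.208 over the alternatives run). Myh14 passed the filter on low counts through its M1-null libraries, so this is given as a description.

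Myh10 stood at 227, 213 and 204 CPM in M1-null cells, against 250.1, 222 and 289 CPM in WT cells. The groups overlapped at 1 library each (-0.24 ± 0.09, adjusted p = 0.0877), and Myh10 was called with DESeq2 (adjusted p = 0.0373) and without WT replicate 2 (-0.33, adjusted p = 0.00898). As a share of nonmuscle counts, Myh10 made up 11.4%, 11.9% and 11.9% in M1-null cells, against 13.4%, 14.8% and 13.4% in WT cells. The shares did not overlap, and the difference of -2.12 percentage points had an exact permutation p of 0.1, the smallest that 3 against 3 allows.

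Myh9 stood at 1760.0, 1581.5 and 1506 CPM in M1-null cells, against 1618, 1282 and 1866 CPM in WT cells, and overlapped (0.02 ± 0.12, adjusted p = 0.908). The rat table also lists Myh9l1, named as a Myh9-like gene, at 2011, 1855 and 1773 CPM in M1-null cells, against 1905, 1534 and 2186 CPM in WT cells. The authors' counting may have split reads between these genes, so the rat Myh9 level and the shares built on it are uncertain. Myh7b stood at 1.04 to 1.74 CPM in M1-null and 0.834 to 1.24 CPM in WT cells, and overlapped (0.34 ± 0.26, adjusted p = 0.386).

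The other genes are given in 6 lists, covering parts of the thick filament and its control, with medians over their tested genes. Among all genes 14.4% were called in heart RNA, 16.4% in footprints and 25.1% in H9C2, and nothing is read from a list whose share lies near these. The median over all genes was -0.00014 in heart RNA, 0.0040 in heart footprints and 0.0044 in H9C2. Of 8 thick filament partners tested in the heart, 3 rose and 2 fell in RNA (median 0.13), and 3 rose and 1 fell in footprints (median 0.03). The M-band protein gene Myom3 rose in RNA, at 7.01 ± 0.96 CPM in cKO and 1.79 ± 0.29 CPM in Ctrl hearts (log2 fold change 1.97), and in footprints (1.71). Mybpc2, the fast skeletal myosin binding protein C, rose in RNA (0.67) and footprints (0.66), as did Trim54, a microtubule and M-band associated RING protein (0.62 and 0.91), while Myom1, the main M-band cross-linker, fell (-0.31 and -0.57).

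Of 11 myosin light chains tested in each heart assay, 3 rose and 2 fell in RNA (median 0.01), and 4 rose and 1 fell in footprints (median 0.44). Myl12a, a nonmuscle regulatory chain, averaged 451 ± 13.5 CPM in cKO and 265 ± 9.64 CPM in Ctrl heart RNA (0.77) and rose in footprints (0.91). Myl9, the smooth muscle regulatory chain, rose by 0.48 in RNA and 0.71 in footprints. The fast skeletal regulatory chain Mylpf rose at a low level, at 2.62 ± 0.14 CPM in cKO and 0.574 ± 0.36 CPM in Ctrl RNA. In RNA it passed the filter on low counts with the help of its cKO libraries, so this is given as a description. Myl1, a fast skeletal essential chain, fell (-0.58 in RNA, -0.62 in footprints). Of the other heavy chains, Myh11 of smooth muscle was the 1 tested in RNA, and it was not called (-0.14, adjusted p = 0.267, and -0.06, adjusted p = 0.736 in footprints).

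Of 10 myosin chaperone and turnover genes, 5 rose in heart RNA (median 0.19), and 3 rose and 1 fell in footprints (median 0.06). The small heat shock protein gene Hspb1 averaged 351 ± 3.003 CPM in cKO and 124 ± 8.92 CPM in Ctrl RNA (1.498) and rose by 1.43 in footprints. Cryab, another small heat shock protein, rose by 0.44 in RNA and 0.47 in footprints, and Bag3, a co-chaperone of the Z-disc, by 0.30 and 0.48. Unc45b, the muscle myosin folding chaperone, was called in footprints (-0.27, adjusted p = 0.0216, lost without either cKO replicate) and not in RNA (-0.14, adjusted p = 0.169).

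Of 9 genes of light chain phosphorylation tested in heart RNA, 1 rose and 4 fell (median -0.12), and of 10 tested in footprints 1 rose and 3 fell (median -0.08). Mylk3, the cardiac myosin light chain kinase, averaged 270 ± 0.23 CPM in cKO and 378 ± 27.0 CPM in Ctrl RNA (-0.49) and fell in footprints (-0.48). The kinase gene Rock1 fell by 0.41 in RNA and by 0.57 in footprints, and its RNA call was lost without Ctrl replicate 1 (adjusted p = 0.128) or cKO replicate 1 (adjusted p = 0.165).

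Among 27 known regulators of heavy chain genes tested in heart RNA, 1 rose and 7 fell (median -0.14), and among 24 in footprints 1 rose and 4 fell (median -0.04). Thrb, a thyroid hormone receptor, averaged 12.8 ± 0.27 CPM in cKO and 17.04 ± 0.46 CPM in Ctrl RNA (-0.41, adjusted p = 0.0238) and fell in footprints (-0.67, adjusted p = 0.00579). Its RNA call was lost with library totals, with DESeq2 (adjusted p = 0.172) and without Ctrl replicate 2 or either cKO replicate. Its partner Rxrg fell by 0.41 in RNA and by 0.40 in footprints, and the muscle factor Mef2a fell by 0.31 and by 0.29. The RNA call of Mef2a was lost without Ctrl replicate 1 (adjusted p = 0.0579), and the footprint calls of Rxrg and Mef2a were lost without some single libraries, each cKO library among them. Sox6, a repressor of slow fibre genes in mouse skeletal muscle, fell in RNA (-0.43, adjusted p = 0.0124; 0.0855 with DESeq2) and was not called in footprints (0.11, adjusted p = 0.800). Srf, serum response factor, fell in footprints (-0.43, adjusted p = 0.0118; 0.131 without cKO replicate 2) and was not called in RNA (-0.06, adjusted p = 0.582). In the interaction, 62 genes of these 6 lists were tested and 0 were called by edgeR. At an unadjusted p under 0.05 there were 7, and the smallest adjusted p was 0.286.

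**Figure D5:**
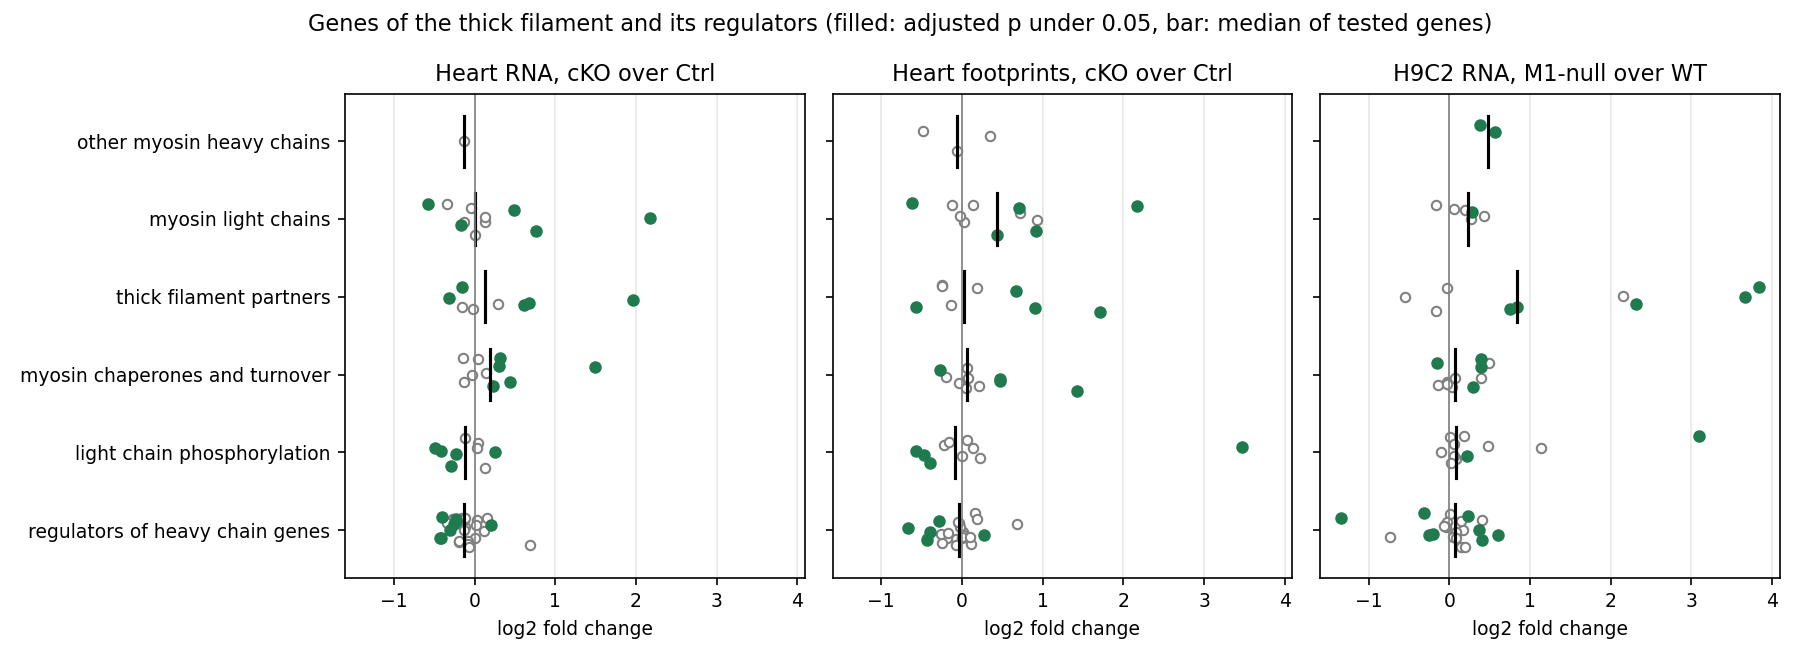
Log2 fold change of every tested gene of 6 lists in heart RNA, heart footprints and H9C2 RNA. Filled points have an edgeR adjusted p under 0.05 and black bars are medians. Thick filament partners in H9C2 have a median of 0.84, which includes genes with few counts in WT cells. The regulators in heart RNA have a median of -0.14.

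In H9C2, 5 of 9 thick filament partners rose (median 0.84). Myom3 averaged 1.65 ± 0.44 CPM in M1-null and 0.114 ± 0.10 CPM in WT cells (3.83). Myom2, also among the 5, averaged 0.814 ± 0.11 CPM in M1-null and 0.0635 ± 0.063 CPM in WT cells. Myom3 and Myom2 passed the filter on low counts through their M1-null libraries, so their values are given as a description. The count of 5 and the median include both. The median also includes Trim54, at 0.380 ± 0.16 CPM in M1-null and 0.0839 ± 0.087 CPM in WT cells, which was not called. The count and the median are therefore also a description. Both of the other heavy chains tested rose. Myh4, the fast IIb skeletal chain, averaged 381 ± 16.0 CPM in M1-null and 257 ± 23.7 CPM in WT cells (0.57, adjusted p = 0.000682) and Myh11 rose by 0.39, a call lost without any single M1-null replicate or WT replicate 1 (adjusted p up to 0.0997). Mylk, the smooth muscle light chain kinase, averaged 65.7 ± 3.50 CPM in M1-null and 7.72 ± 0.63 CPM in WT cells (3.09). Of 23 regulators tested, 4 rose and 4 fell (median 0.08), with Gata4 at 31.5 ± 0.47 CPM in M1-null and 20.8 ± 1.151 CPM in WT cells (0.60). Of 9 skeletal muscle markers in the rat table, Myf5 and Pvalb were at 0 in all libraries, and the 9 summed to 566 to 597 CPM in M1-null and 380 to 404 CPM in WT cells. Myh4 and Myod1 supplied most of that sum, and of 6 markers tested 2 rose and 1, Myog, fell. The 5 fibroblast markers in the table summed to 7530 to 7963 CPM in M1-null and 9253 to 9705 CPM in WT cells. The part of these markers in the Myh8 value was not tested.

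The genes whose profile over the 8 heart libraries was most like that of a member were found by the root mean square distance of log2 CPM, centred on each gene's mean within each assay, among 6482 genes with at least 10 CPM in both. For Myh7 they included Nt5e, Psmb10, Ptk2b and Epdr1, at distances of 0.36 to 0.39. For Myh6 they included Grsf1, Stx17 and Akap7, at 0.02 to 0.03, and for Myh10 they included Rilp, Vps52, Ppp1r12a and Chp1, at 0.02 to 0.03. Ppp1r12a encodes a targeting subunit of the myosin phosphatase. The genes named for Myh7 were farther from it than those named for Myh6 and Myh10 were from their member. The distance was not scaled for how much a gene varied, so it cannot compare likeness between members. A small distance between genes that vary little does not show a shared pattern. Over the 6 H9C2 libraries, the nearest to Myh9 were Arhgap5, Myh9l1, Arid2, Iqgap1 and Dst, and the nearest to Myh10 were Prkdc, Ahi1, Erbin, Lrba and Pde4dip, all within 0.04.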

How the data were processed

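The authors deposited unnormalized whole-number counts: for the heart and H9C2 RNA libraries per gene, and footprints per open reading frame for heart Ribo-seq. The unit was read from the values. Whether the H9C2 counts are reads or estimates from coverage is not stated; their column names leave both possible. As builds the submitters' processing notes list Rnor_6.0 and GRCm38, and as tools Bowtie, Bowtie2, STAR, HISAT2, StringTie, featureCounts, cutadapt and DESeq2. Which tool made which table, the strand setting and the handling of reads with several matches are not stated. The 4 tRNA libraries were not analysed here.

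The frame with the most footprints was kept per gene (98.914% of footprints). Each table was tested whole with edgeR 4.0.16 (R 4.3.3) using glmQLFit and glmQLFTest, TMM factors, filterByExpr (minimum count 10) and Benjamini-Hochberg adjustment at 0.05, with heart RNA and footprints apart (2 against 2) and H9C2 3 against 3. The interaction of genotype and assay used 1 model of 8 heart libraries. RNA and footprint libraries share replicate numbers, but no label says that they come from 1 heart, so they were not matched. The fit was tested on simulated data. Shares used exact permutation tests (two-sided), with Wilson intervals at 95% for the heart covering counting error only. CPM per kilobase used the mouse coding length of the kept frame, also for rat. Ratios used CPM with TMM factors within each assay.

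Alternatives were relative-log-expression factors, library totals (for the interaction, TMM within each assay), DESeq2 1.42.0, limma-voom (limma 3.58.1), a filter of 1 or of 50 counts, all frames summed, the longest frame, shares per kilobase, the replicate number as a block and each replicate left out. The text names all 8 members, the called genes of each of 16 lists with the smallest adjusted p (at most 4), overlapping genes, Mettl1 and genes among the 5 most alike. A few genes that this rule names are not reported here. Some list genes that were not called, and Myl7, Myl4, Ryr2, Myom2 and Myh9l1, were named after their values were seen, as were the letters of the motifs. The members and lists were chosen with earlier results of these data known.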

Additional observations from a re-analysis of the deposited data

Results flagged for a closer look

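The genotype effect on Myh7 differed between the assays in the main edgeR run. Myh7 rose in cKO heart RNA by 1.49 on the log2 scale and differed by 0.0038 in footprints. The interaction of genotype and assay gave -1.5 (edgeR adjusted p = 0.0307). Its call was lost with DESeq2 (adjusted p = 0.144) and without either cKO replicate (-1.51 and -1.46). The footprint value was 0.52 without Ctrl replicate 1 and -0.38 without Ctrl replicate 2. Both cKO footprint libraries lay between the Ctrl footprint libraries. Reads shared between Myh6 and Myh7 were not tested for their part in this value.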

How the results depend on the processing

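The members called numbered 1 (Myh7) in heart RNA with library totals and with DESeq2, against 2, and 2 to 3 without each replicate. They numbered 1 to 2 in footprints without each replicate. In the interaction they numbered 0 with DESeq2 and 0 to 1 without each replicate. In H9C2 they numbered 3 with DESeq2, 2 with limma-voom and 0 to 3 without each replicate. Over all genes, edgeR called 2032 in heart RNA, against 1080 with DESeq2 and 1155 to 2002 without each replicate. Footprint calls numbered 2221 and 1148 to 1940 without each replicate, and H9C2 calls 3720 and 2354 to 4455. Interaction calls numbered 16, against 40 with DESeq2 and 2 to 11 without each replicate.

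Directions of members that were not called turned in places. The Myh7 footprint value was -0.0030 with relative-log-expression factors and -0.0039 with DESeq2, and -0.38 to 0.52 without each replicate. Library totals, which moved the median of all genes to 0.08 in heart RNA and 0.07 in footprints, gave 0.039 for Myh14 RNA and 0.048 for Myh9 footprints. Without each replicate the values ran from -0.51 to 0.044 for Myh7b RNA, -0.025 to 0.081 for Myh10 RNA, -0.094 to 0.0082 for Myh14 RNA, -0.17 to 0.54 for Myh8 footprints, -0.095 to 0.038 for Myh9 footprints, -0.32 to 0.14 for Myh14 footprints and -0.11 to 0.15 for Myh9 in H9C2. In the interaction they ran from -0.57 to 0.077 for Myh7b, -0.025 to 0.23 for Myh10 and -0.29 to 0.17 for Myh14. For these the cause was not tested.

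Within an assay, replicate numbers did not pair libraries of opposite genotype. Such same-numbered libraries deviated with correlations of 0.009 in heart RNA, -0.04 in footprints and -0.053 to 0.048 in H9C2. Same-numbered RNA and footprint libraries were not compared in this way, so whether they pair was not tested. With the replicate number as a block the members called stayed at 2 in heart RNA, 1 in footprints, 1 in the interaction and 1 in H9C2. In the interaction the block joined RNA and footprint libraries of the same genotype and number, and it gave 134 calls over all genes. Myh7 share differences with the block were 0.825 points in RNA, 0.404 in footprints and 19.6 in H9C2. With 2 libraries a group in the heart, a library left out leaves 1, which is assumed to vary like the rest.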

Other observations

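Heavy chains of adult fast skeletal muscle were also read in the heart footprint table. Myh4 averaged 2.003 ± 0.43 footprint CPM in cKO and 2.81 ± 0.50 footprint CPM in Ctrl hearts (log2 fold change -0.48, adjusted p = 0.283), and Myh2 averaged 0.321 ± 0.005 CPM in cKO and 0.263 ± 0.16 CPM in Ctrl hearts (0.35, adjusted p = 0.791). Of 5 skeletal muscle markers tested in footprints, Myh4 and Myh2 among them, 1 rose and 0 fell. The 1 that rose, Tnnt3, averaged 1.27 ± 0.21 CPM in cKO and 0.0871 ± 0.006 CPM in Ctrl hearts (3.81). Tnnt3 passed the filter on low counts through its cKO libraries, so this is given as a description. Of 11 skeletal muscle markers in the heart RNA table, Myog and Myf6 were at 0 in all libraries. Whether skeletal muscle cells were present was not tested.

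Myh10 has a second frame of 17 codons in the footprint table, ahead of the main one, with 18 and 3 footprints in cKO hearts, against 5 and 7 in Ctrl hearts. The groups overlapped, and 1 cKO library held most of them. The second frame of Myh7b, of 41 codons, had 0 in all libraries.

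The natriuretic peptide gene Nppa, a stress and atrial gene that is often read beside Myh7, averaged 802 ± 164 CPM in cKO and 66.3 ± 6.48 CPM in Ctrl heart RNA (log2 fold change 3.60) and 4227 ± 762 CPM in cKO and 344 ± 36.1 CPM in Ctrl footprints (3.62). Its interaction value was 0.0051 (edgeR adjusted p = 0.998). The 6 atrial markers, Nppa among them, summed to 792 to 1075 CPM in cKO and 189 to 219 CPM in Ctrl heart RNA. Nppa supplied most of the cKO sum, and the other atrial markers did not rise as a group. Bmp10 rose at a low level (1.79), Stard10 fell (-0.74), and Sln, Myl4 and Myl7 were not called. Conduction system markers fell, 4 of 5 in RNA (median -0.62) and 4 of 4 tested in footprints (median -0.61), with Hcn4, the pacemaker channel, at 11.1 ± 0.60 CPM in cKO and 22.02 ± 1.77 CPM in Ctrl RNA.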
